A study of Mus musculus with 20 samples.

Results

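The osteoclast effector genes examined here are 10 genes, of 54446 in the deposited table, that encode the regulators and the working parts of the bone-resorbing cell: Nfatc1, Oscar, Itgb3, Calcr, Dcstamp, Ocstamp, Slc9b2, Ctsk, Acp5 and Mmp9. They were chosen by name, with results of these data in view. Slc9b2 and Ctsk were selected on their higher level in loaded than in unloaded tibiae of vehicle-treated mice, so that comparison is a description for all 10 genes and carries no test. All 10 passed the filter on low counts in each comparison.

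RNA-seq was made from 20 tibiae of 3-month-old male C57BL/6J mice, 5 in each of 4 groups. Vehicle_Ctrl tibiae came from mice injected with water s.c. for 5 days and were not loaded. Vehicle_Load tibiae came from mice given the same injections and received axial compression at 13 N, 40 cycles a session, on days 1 and 3 by the labels. DEX_Ctrl and DEX_Load tibiae are the unloaded and loaded tibiae of mice given dexamethasone, a synthetic glucocorticoid, at 1 mg/kg s.c. for 5 days. The left tibia was loaded and the right one was the control, so loaded and unloaded tibiae of a treatment come from the same mice, but nothing states that a replicate number marks a mouse. Both treatments were given by injection, and no bone of an uninjected mouse was analysed here. The vehicle libraries are replicates 1, 2, 4 and 5 and, in each vehicle group, one that the deposited table numbers 6. No label has that number and the vehicle labels numbered 3 matched no column, so this library is placed by its group alone and called unnumbered below. The study removed a library it calls DEX-4, and which tibia it was is not given in the sources used here. The plan of the fits left out replicate 4 of DEX_Ctrl, because the study's plots were taken to hold 4 unloaded DEX values. Its values are given, replicate 4 of DEX_Load is kept, and fits with the opposite choice are alternatives.

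Library totals ran from 4641437 to 13032018 expected counts. Levels below are counts scaled to library size (CPM) with TMM, a correction for library composition. Frozen tibial bone, which the study elsewhere calls cortical bone with its periosteum, was pulverized and extracted, and transcripts of many other cells were present. Summed marker levels in Vehicle_Ctrl ran from 80.5 to 152 CPM (adipocyte) up to 41157 to 144646 CPM (osteoblast). None of the osteoblast, osteocyte, neutrophil, macrophage, megakaryocyte, cartilage, muscle, erythroid, B cell or adipocyte markers was at 0 in every library, a bar that background reads can also pass. In such bulk samples fewer osteoclasts and less RNA per osteoclast cannot be told apart. DEX_Load replicate 4, the smallest library, held 8885 CPM on olfactory and vomeronasal receptor genes, which are known from sensory tissue, against 232 to 3583 CPM in the other 19. It gave the lowest value of its group for Nfatc1, Itgb3, Dcstamp, Slc9b2, Ctsk, Acp5 and Mmp9, and the highest of its group for Ocstamp (8.66 CPM). Reads on these 1965 receptor genes stood at 232 to 913 CPM in Vehicle_Load and at 1092 to 8885 CPM in DEX_Load, with no overlap. A fit of dexamethasone in loaded tibiae with such reads as a covariate therefore cannot tell the 2 apart. Whether such reads add to Calcr, Oscar, Dcstamp and Ocstamp, the lowest genes in CPM, was not tested.

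Osteoclasts are multinucleated cells of the monocyte lineage that form when RANKL, made by osteoblast-lineage and other cells, acts on the receptor RANK while costimulatory receptors raise calcium in the precursor. NFATc1, the transcription factor at the end of that pathway, switches on genes for fusion, for attachment to bone, for acid secretion and for matrix-degrading enzymes. Glucocorticoids are known to act on osteoclasts and on bone-forming cells alike, and are a common cause of bone loss.

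Promoter windows were examined because Ctsk, Slc9b2 and Acp5 varied together across the 20 tibiae, with correlations of 0.60 to 0.80 between them, and because NFAT factors bind sites with the core GGAAA. RefSeq windows on GRCm38.p6, from 250 bases before to 50 bases after a start site, were found for 5 of the 10 genes (Oscar, Calcr, Slc9b2, Ctsk and Acp5), 8 windows in all. The 3 windows that follow belong to Ctsk (chr3:95498960-95499259, plus strand), Slc9b2 (chr3:135307450-135307749, plus strand) and Acp5 (chr9:22130549-22130848, minus strand, the innermost of its 3 windows). They are written 5′ to 3′ with GGAAA, or TTTCC where the match is on the other strand, in capitals.
Ctsk: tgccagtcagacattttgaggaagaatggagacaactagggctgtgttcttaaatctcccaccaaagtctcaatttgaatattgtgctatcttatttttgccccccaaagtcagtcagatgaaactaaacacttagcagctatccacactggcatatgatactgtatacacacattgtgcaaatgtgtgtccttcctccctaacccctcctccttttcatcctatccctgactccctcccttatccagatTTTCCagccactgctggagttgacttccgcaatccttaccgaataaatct
Slc9b2: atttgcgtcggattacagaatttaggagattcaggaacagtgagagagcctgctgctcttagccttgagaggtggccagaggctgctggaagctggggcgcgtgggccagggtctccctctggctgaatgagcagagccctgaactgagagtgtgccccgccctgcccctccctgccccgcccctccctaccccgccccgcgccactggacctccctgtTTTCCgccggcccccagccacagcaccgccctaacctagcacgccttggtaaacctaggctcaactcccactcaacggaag
Acp5: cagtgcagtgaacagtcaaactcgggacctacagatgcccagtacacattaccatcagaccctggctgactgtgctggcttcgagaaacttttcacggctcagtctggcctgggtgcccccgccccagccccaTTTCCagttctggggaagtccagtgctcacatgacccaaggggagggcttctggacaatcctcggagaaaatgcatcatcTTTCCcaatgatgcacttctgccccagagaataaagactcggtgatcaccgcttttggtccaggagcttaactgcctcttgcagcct
The Ctsk window held 1 match to GGAAA, the Slc9b2 window 1 and this Acp5 window 2, where 61.3% of 32851 promoter windows of that length held at least 1. GAGGAA, a core bound by PU.1 that contains GGAA and so can overlap GGAAA, occurred 2 times in the Ctsk window and in neither of the other windows shown, against 28.3% of all windows. The M-box core TCANGTG, bound by MITF, occurred 1 time in the Acp5 window and in 14.3% of all windows, and the AP-1 site TGANTCA, found in 7.81% of all windows, was in none of the 3. Both strands were searched, and a match is a description of letters and not a site of binding. Of the windows not shown, those of Acp5 held 1 GGAAA each and no match to the other motifs. The Oscar window held 4 GGAAA, 2 GAGGAA and 1 TCANGTG. The Calcr windows held 0 and 1 GGAAA, the latter with 1 TCANGTG.

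Per kb of exon, the scale on which genes can be compared with each other, the 10 genes fell into a high and a low set in every group. In Vehicle_Ctrl the highest was Ctsk, encoding cathepsin K, the collagen-cleaving protease of the resorption pit, at 139.9 ± 17.9 CPM per kb (SD, n = 5). Acp5, encoding tartrate-resistant acid phosphatase, stood at 98.0 ± 22.9, and Mmp9, a gelatinase, at 96.9 ± 23.6 on the same scale. The ranges of neighbours in that order overlapped, but within each of the 5 tibiae Ctsk was above both Acp5 and Mmp9. The order of Acp5 and Mmp9 differed between tibiae and is not resolved. Itgb3, the integrin β3 chain, followed at 47.5 ± 9.51 CPM per kb and Nfatc1 at 17.2 ± 3.795, each clear of the gene above and below it. The low set lay between 0.331 CPM per kb (Calcr, the calcitonin receptor) and 1.61 (Oscar, a collagen-binding costimulatory receptor), with Slc9b2, a sodium/proton antiporter, at 1.57, Ocstamp at 1.00 and Dcstamp at 0.961, the last a pair of membrane proteins needed for fusion. Against 22650 genes, the high set stood at the 90.2 to 98.9 percentile of level per length and the low set at the 14.5 to 42.6 percentile. Slc9b2 ranked seventh of the 10 in Vehicle_Ctrl and sixth in the other 3 groups, where it overlapped Oscar. Mmp9 ranked first in DEX_Ctrl, at 187.6 ± 42.0 CPM per kb, with a range that overlapped that of Ctsk but a value above it within each tibia.

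**Figure D1:**
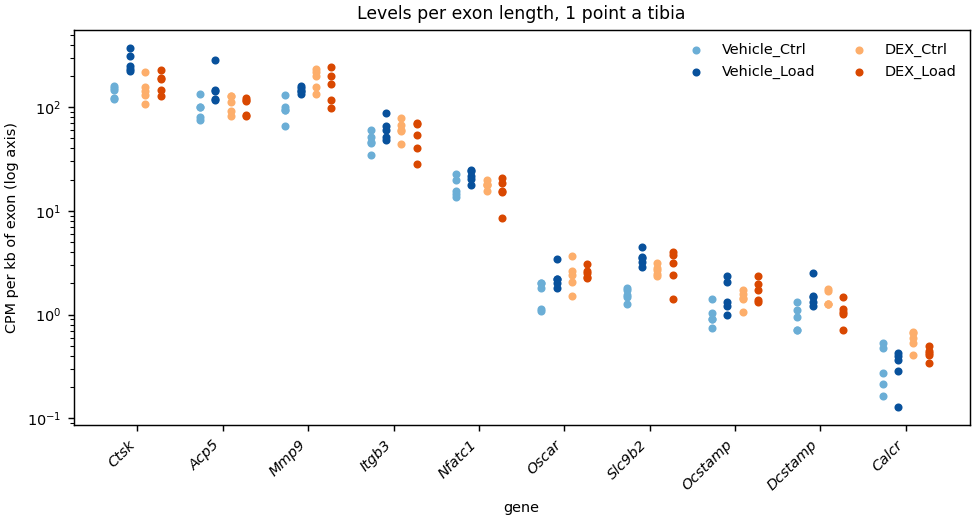
Levels of the 10 genes per kb of exon (y axis, CPM per kb, log scale) in the 4 groups, 1 point a tibia, ordered by the Vehicle_Ctrl mean. Ctsk, Acp5, Mmp9, Itgb3 and Nfatc1 lie at 8.56 CPM per kb or more in every tibia and the other 5 genes at 4.51 or less.

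Counts behind the low set were small: 4 to 23 a library for Calcr, 12 to 73 for Dcstamp, 15 to 73 for Oscar, 26 to 68 for Ocstamp and 49 to 272 for Slc9b2. The 5 high genes had 406 to 8836 counts a library. Acp5 (chr9:22126727-22135711, minus strand) shares exon bases with 6530413G14Rik on the other strand, which had 0.0862 to 1.88 CPM. The remaining 9 genes share no exon bases with another annotated gene.

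The first comparison asked how loading changed these genes under vehicle. All but Calcr had a higher fitted level in loaded tibiae, with a median log2 fold change (log2FC) of 0.60 over the 10 genes beside −0.00 over the 17982 genes tested. This is the comparison in which Slc9b2 and Ctsk were noted, so these values describe how the genes were picked as well as what they did. Across all genes edgeR's quasi-likelihood test called 0 genes at an adjusted p of 0.05 (1773 at an unadjusted p under 0.05), and DESeq2 called 58 higher and 83 lower. In 3 of the 10 genes (Slc9b2, Ctsk and Mmp9) every loaded tibia was above every unloaded one, and 0.701% of all genes were higher in that way.

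Slc9b2 (chr3:135307700-135345387, plus strand) measured 9.55, 7.0, 8.17, 9.91 and 8.47 CPM in the unloaded tibiae (replicates 1, 2, 4, 5 and the unnumbered one) and 24.8, 15.9, 17.8, 19.9 and 19.3 CPM in the loaded ones. The lowest loaded tibia was above the highest unloaded one, and the fitted change was 2.23-fold (log2FC 1.15, SE 0.15). Ctsk (chr3:95499256-95509362, plus strand) measured 232.0, 183, 182, 239 and 221 CPM unloaded and 474, 334, 349, 558 and 379 CPM loaded. The groups did not overlap, and the change was 1.94-fold (log2FC 0.96, SE 0.16). Mmp9 (chr2:164940780-164955850, plus strand) measured 354, 233, 329, 332 and 467 CPM unloaded and 469, 503, 544, 569.8 and 509 CPM loaded. Its groups met almost without a gap, with a change of 1.49-fold (log2FC 0.58, SE 0.15).

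Acp5, like Ctsk an enzyme that osteoclasts secrete, rested more on a single tibia. It measured 205, 164, 153, 271 and 202 CPM unloaded and 297, 241, 287, 579 and 238 CPM loaded, and its log2FC of 0.70 (SE 0.26) dropped to 0.39 without Vehicle_Load replicate 5. That tibia also held the highest Ctsk (558 CPM), Oscar (6.34 CPM), Ocstamp (8.54 CPM) and Mmp9 (569.8 CPM) of its group. Without it, Oscar's log2FC went from 0.49 (SE 0.27) to 0.32 and Ctsk's from 0.96 to 0.83. Dcstamp rested in part on another tibia: replicate 1 measured 6.66 CPM against 3.23 to 4.00 CPM in the remaining 4, and its log2FC of 0.71 (SE 0.26) was 0.50 without it.

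The other genes had overlapping groups. Nfatc1 measured 116, 109, 148, 102 and 168 CPM unloaded and 183, 163, 153, 134 and 182 CPM loaded, overlapping groups with a log2FC of 0.31 (SE 0.14). That value was 0.18 with olfactory and vomeronasal receptor-gene reads as a covariate. Itgb3 (chr11:104608000-104670476, plus strand) had a log2FC of 0.37 (SE 0.17), with 204 to 357 CPM unloaded and 283 to 516 CPM loaded, and stood at 0.24 without Vehicle_Load replicate 1 and at 0.22 with olfactory and vomeronasal receptor-gene reads as a covariate. Ocstamp (chr2:165393760-165400405, minus strand) went from 2.72 to 5.17 CPM unloaded to 3.65 to 8.54 CPM loaded (log2FC 0.62, SE 0.28). Calcr (chr6:3685680-3764714, minus strand) was the single gene with no higher fitted level, at 0.636 to 2.06 CPM unloaded and 0.501 to 1.66 CPM loaded (log2FC −0.05, SE 0.41), an error too wide to tell it from the median of the 10, and ran from −0.22 to 0.18 with single libraries left out. Markers of other cells moved with loading too: 6 of 6 cartilage markers tested had a positive log2FC (median 1.74) and 8 of 8 muscle markers a negative one (median −1.09). Macrophage and monocyte markers had a positive log2FC in 11 of 11 (median 0.23), with a summed level of 528 to 786 CPM unloaded and 709 to 887 CPM loaded. edgeR called none of these markers (4 of the 11 of macrophages and monocytes at an unadjusted p under 0.05). Their part in the members' values was not tested.

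**Figure D2:**
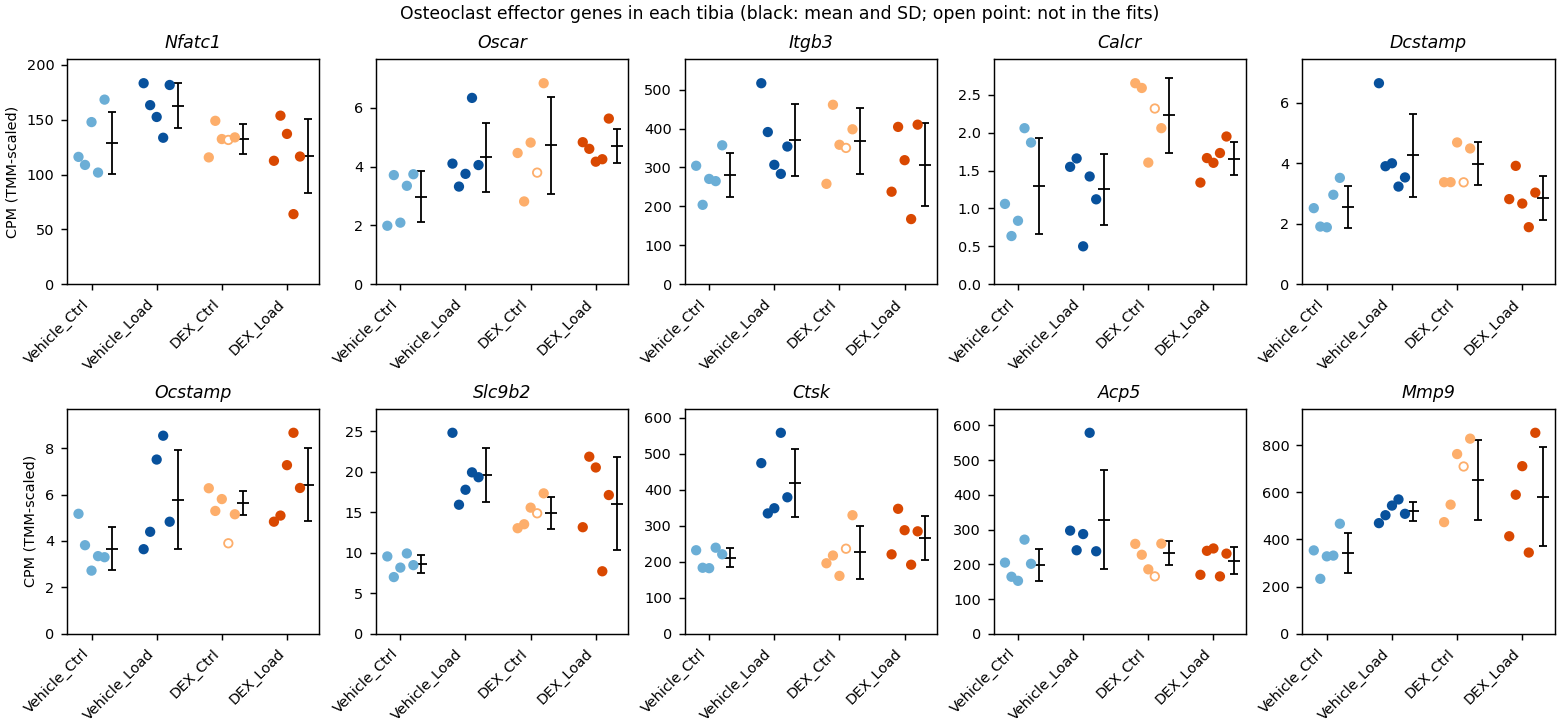
TMM-scaled CPM (y axis, linear, from 0) of each gene in each tibia by group, with the mean and SD in black, and DEX_Ctrl replicate 4, which is in no fit and not in that mean, as an open point. Slc9b2 lies at 7.0 to 9.91 CPM in Vehicle_Ctrl and 15.9 to 24.8 CPM in Vehicle_Load, while its DEX_Load tibiae spread from 7.72 to 21.8 CPM.

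The second comparison asked the same of mice given dexamethasone, and here all 10 genes were tested, since the rule that picked Slc9b2 and Ctsk used no DEX library, although results of these libraries were also known. No gene was called: 0 of 10 by edgeR's quasi-likelihood test, with 0 of 10 at an unadjusted p under 0.05 and 0 of 10 by DESeq2. Over all 22541 genes the share called was 0% (958 genes at an unadjusted p under 0.05, and 0 by DESeq2), so the members' count does not set them apart. In none of the 10 genes did the groups separate, where 1.25% of all genes had groups that did not overlap in one direction or the other. Fitted log2FC ran from −0.49 to 0.21 with a median of −0.18, beside 0.02 over all genes, and adjusted p from 0.733 to 0.952 (edgeR). The median depended on single libraries: it ran from −0.24 to −0.029 with 1 left out, the last without DEX_Load replicate 4. With that library out and DEX_Ctrl replicate 4 put back in its place, the median was −0.013.

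Slc9b2 measured 13.03, 13.5, 15.6, 14.9 and 17.3 CPM in DEX_Ctrl replicates 1 to 5 and 13.2, 21.8, 20.5, 7.72 and 17.1 CPM in DEX_Load. The loaded tibiae spanned the whole range of the unloaded ones on both sides, giving a log2FC of 0.10 (SE 0.27, adjusted p = 0.878, edgeR). Ctsk measured 196, 217, 161, 236 and 329 CPM unloaded and 221, 347, 288, 192 and 285 CPM loaded, with a log2FC of 0.21 (SE 0.27, adjusted p = 0.757, edgeR). Without the 3 DEX libraries richest in receptor-gene reads (replicates 1 and 4 of DEX_Load and 1 of DEX_Ctrl), the log2FC was 0.35 for Slc9b2 and 0.37 for Ctsk, with an adjusted p of 0.978 for each (edgeR). The 95% interval of the fitted log2FC, not adjusted for the number of genes, was −0.49 to 0.69 for Slc9b2 and −0.36 to 0.79 for Ctsk. Changes of either sign within those bounds are not excluded. Without DEX_Load replicate 4 alone, the log2FC was 0.29 (SE 0.19) for Slc9b2 and 0.33 (SE 0.23) for Ctsk. With receptor-gene reads as a covariate it was 0.37 (SE 0.18) for Slc9b2 and 0.49 (SE 0.17) for Ctsk, each at an adjusted p of 0.9998 (edgeR). Ctsk moved further with unloaded tibiae left out, to 0.47 without DEX_Ctrl replicate 5, its highest, and to 0.074 without DEX_Ctrl replicate 3, its lowest.

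The other genes had fitted values of either sign, and those of Nfatc1, Itgb3, Acp5 and Mmp9 moved toward 0 without DEX_Load replicate 4. Mmp9 measured 474, 548, 762, 709.5 and 828 CPM unloaded and 414, 589.7, 711, 345 and 852 CPM loaded (log2FC −0.19, SE 0.32, adjusted p = 0.811, edgeR). Acp5 measured 259, 228, 186, 165 and 259.6 CPM unloaded and 169.9, 239, 246, 165 and 231 CPM loaded (log2FC −0.17, SE 0.21, adjusted p = 0.760, edgeR). Without that library the log2FC of Mmp9 was −0.026, of Acp5 −0.068, of Nfatc1 −0.032 and of Itgb3 −0.10. Other single libraries moved them away from 0, to −0.38 for Mmp9, −0.26 for Acp5, −0.32 for Nfatc1 and −0.43 for Itgb3 at the lowest. Macrophage and monocyte markers had a negative log2FC in 11 of 11 here (median −0.28, none called by edgeR and 0 at an unadjusted p under 0.05), and their part was not tested. The lowest and highest fitted values were those of Dcstamp, at −0.49 (SE 0.31), and of Ctsk. Of the rest, Calcr stood at −0.44 (SE 0.37), Itgb3 at −0.28 (SE 0.30), Nfatc1 at −0.20 (SE 0.24), Oscar at −0.05 (SE 0.29) and Ocstamp at 0.16 (SE 0.23). Ocstamp was at 0.069 without DEX_Load replicate 4 and at 0.26 without DEX_Load replicate 1. With receptor-gene reads as a covariate the log2FC of Nfatc1, Oscar, Itgb3 and Mmp9 turned positive, each with an adjusted p near 1.

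The third comparison asked what dexamethasone did in tibiae that were not loaded, and here 1 gene of the 8 tested passed. Mmp9 rose 1.94-fold (log2FC 0.96, SE 0.23, adjusted p = 0.0292, edgeR), from 343 ± 83.4 CPM (SD, n = 5) in Vehicle_Ctrl to 653 ± 169 (SD, n = 4) in DEX_Ctrl. All 4 fitted DEX tibiae, and replicate 4 at 709.5 CPM, were above the highest vehicle tibia at 467 CPM. Of 19738 genes, 2.86% were called higher and 3.99% lower, so 1 member higher and 0 lower is a small count on a background of that size. DESeq2, which called 4.76% of all genes higher and 7.46% lower, also called Mmp9 alone of the 8 (adjusted p = 0.000866), while edgeR's call was lost without any 1 of 5 libraries (Vehicle_Ctrl replicates 1, 4 and 5 and DEX_Ctrl replicates 3 and 5), where the adjusted p was 0.0531 to 0.120. Without DEX_Ctrl replicate 1, the fitted unloaded DEX tibia richest in receptor-gene reads, it was 0.0177 (edgeR). With the replicate number as a block the call was also lost (adjusted p = 0.0865, edgeR), as on the same libraries without the block (adjusted p = 0.0695, edgeR).

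Mmp9 is also made by neutrophils, which store it in granules. Neutrophil markers moved with it: 9 of 11 rose (edgeR), with a median log2FC of 1.06 beside 0.03 over all genes, and none was at 0. Their summed level was 5031 to 7281 CPM in Vehicle_Ctrl and 9136 to 16484 CPM in DEX_Ctrl. Over the 20 tibiae the log2 level of Mmp9 and of the neutrophil sum had an r of 0.65, as a description across libraries that share treatment, and Mmp9 and the macrophage and monocyte sum had an r of 0.64. Of those 11 markers 7 had a positive and 4 a negative log2FC (Adgre1, Cd68, C1qb and C1qc, none of the 4 called by edgeR), and 2 rose, Ccr2 and Ly6c2, both of inflammatory monocytes (log2FC 0.90 and 1.21, adjusted p = 0.00386 and 0.0141, edgeR), and the sum of the 11 was 528 to 786 CPM in Vehicle_Ctrl and 777 to 926 CPM in DEX_Ctrl. The part of either cell type in the Mmp9 difference was not tested.

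All 10 genes had a positive log2FC in that comparison, with a median of 0.65 beside 0.03 over all genes, and 3 of 8 had an unadjusted p under 0.05, as had 24.6% of all genes. Ocstamp had a log2FC of 0.63 (SE 0.22, adjusted p = 0.107, edgeR), from 3.67 ± 0.924 CPM (SD, n = 5) to 5.63 ± 0.512 (SD, n = 4), although DEX_Ctrl replicate 4, outside the fit, was at 3.90 CPM. Dcstamp had 0.66 (SE 0.27, adjusted p = 0.161, edgeR) and went from 1.89 to 3.52 CPM to 3.38 to 4.69 CPM. Calcr had 0.80 (SE 0.40), Oscar 0.69 (SE 0.32), Itgb3 0.42 (SE 0.20), Acp5 0.24 (SE 0.18) and Nfatc1 0.07 (SE 0.16), with adjusted p of 0.204 to 0.833 (edgeR). Oscar stood at 0.41 without DEX_Ctrl replicate 5, and Acp5 at 0.15 without that library and at 0.37 without Vehicle_Ctrl replicate 5. Itgb3 passed only with receptor-gene reads as a covariate (log2FC 0.70, adjusted p = 0.0282, edgeR).

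Slc9b2 and Ctsk, which carry no test here because the vehicle libraries were used to pick them, parted in unloaded tibiae. Slc9b2 was higher in every DEX_Ctrl tibia (13.03 to 17.3 CPM) than in every Vehicle_Ctrl tibia (7.0 to 9.91 CPM), a log2FC of 0.81 (SE 0.16). Ctsk overlapped, at 161 to 329 CPM and 182 to 239 CPM (log2FC 0.12, SE 0.21), and its log2FC was −0.16 without DEX_Ctrl replicate 5. Slc9b2 and Mmp9 are the 2 of the 10 genes whose groups did not overlap, where 4.45% of all genes were higher in that way. The same 5 Vehicle_Ctrl libraries are the baseline of the loading comparison under vehicle, so a low value there raises both differences.

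The fourth comparison set loaded tibiae of the 2 treatments against each other. None of the 8 genes tested was called by edgeR or DESeq2 (2 of 8 at an unadjusted p under 0.05, where 37.2% of all genes were), on a background of 12.9% of 19780 genes called higher and 8.35% called lower by edgeR, and 17.5% and 11.0% by DESeq2. None of the 10 had groups without overlap, against 16.5% of all genes in one direction or the other. The 2 genes with the lowest p were Acp5 and Nfatc1. Acp5 went from 328 ± 143 CPM (SD, n = 5) in Vehicle_Load to 210.2 ± 39.2 (SD, n = 5) in DEX_Load (log2FC −0.61, SE 0.25, adjusted p = 0.0997, edgeR). Nfatc1 went from 163 ± 20.8 to 117 ± 33.9 CPM (SD, n = 5 each; log2FC −0.44, SE 0.19, adjusted p = 0.117, edgeR).

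Both Acp5 and Nfatc1 passed when all 4 groups shared a model, with an adjusted p of 0.0276 and 0.0430 (edgeR), and Nfatc1 passed at 0.0498 without DEX_Load replicate 2. With receptor-gene reads as a covariate, which did not overlap between the 2 loaded groups, Nfatc1 turned to 0.24 and Acp5 stood at −0.78. Their adjusted p was then 0.700 and 0.429 (edgeR). In that fit Oscar, Itgb3, Dcstamp and Ocstamp also changed sign. Macrophage and monocyte markers moved in this comparison too: 3 of 11 fell (Adgre1, Cd68 and C1qc) and 1 rose (Ly6c2), with a summed level of 709 to 887 CPM in Vehicle_Load and 450 to 867 CPM in DEX_Load. That sum had an r of 0.79 with Nfatc1 over the 20 tibiae, and 0.90 for deviations from the group means, and its part in the Nfatc1 values was not tested. The Acp5 and Nfatc1 values rest in part on single tibiae, the Vehicle_Load replicate 5 at 579 CPM for Acp5 and the DEX_Load replicate 4 at 63.9 CPM for Nfatc1. Without replicates 1 and 4 of DEX_Load, the loaded tibiae richest in receptor-gene reads, the adjusted p was 0.317 for Acp5 and 0.255 for Nfatc1 (edgeR). Dcstamp stood at −0.53 (SE 0.29), Itgb3 at −0.23 (SE 0.24), Oscar at 0.17 (SE 0.24), Ocstamp at 0.20 (SE 0.28), Mmp9 at 0.21 (SE 0.23) and Calcr at 0.44 (SE 0.39). Mmp9 had an adjusted p of 0.532 (edgeR), but a log2FC of 0.49 (SE 0.14, adjusted p = 0.0525, edgeR) without those 2 libraries, with neutrophil markers again higher under dexamethasone (10 of 11 called, median log2FC 1.03, summed level 4314 to 6387 CPM in Vehicle_Load and 7309 to 17425 CPM in DEX_Load). Ctsk (log2FC −0.62, SE 0.20) and Slc9b2 (log2FC −0.23, SE 0.23) carry no test, and in both the DEX_Load tibiae overlapped the Vehicle_Load ones. Slc9b2 turned to 0.42 with receptor-gene reads as a covariate and to 0.043 without those 2 libraries. Ctsk stood at −0.36 (SE 0.30) and −0.43 (SE 0.18) in the same fits. Without DEX_Load replicate 4 alone, Slc9b2 stood at −0.076, Itgb3 at −0.081 and the median of the 10 at −0.079, in place of −0.23 each. Mmp9 ran from 0.014 to 0.34, Ocstamp from 0.028 to 0.35, Oscar from 0.041 to 0.31 and Calcr from 0.21 to 0.51 with single libraries left out. Dcstamp stood at −0.34 without Vehicle_Load replicate 1 and Acp5 at −0.33 without Vehicle_Load replicate 5.

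**Figure D3:**
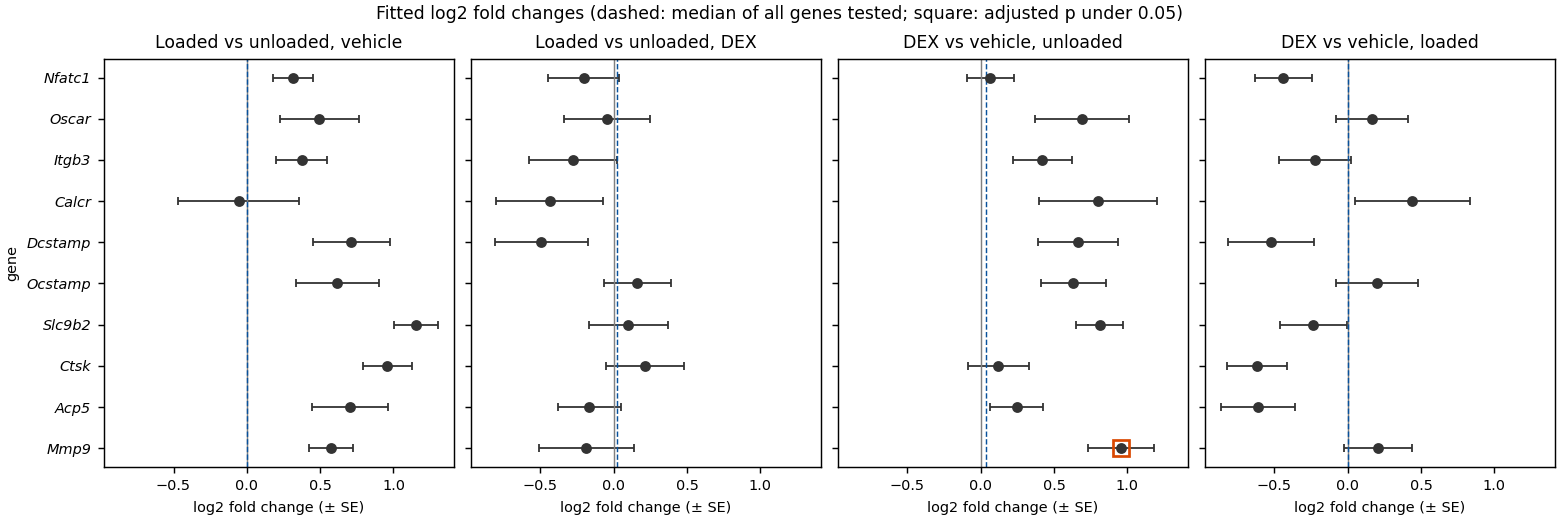
Fitted log2 fold change (x axis, with SE) of the 10 genes (y axis) in the 4 comparisons; the dashed line is the median over all genes tested and a square marks an adjusted p under 0.05 (edgeR). The single square is Mmp9 in unloaded tibiae, at 0.96, and under vehicle 9 of 10 points lie to the right of 0.

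The difference between the loading effects under dexamethasone and under vehicle was negative for all 10 genes, from −1.22 for Dcstamp (SE 0.39) and −1.07 for Slc9b2 (SE 0.32) to −0.40 for Calcr (SE 0.55). Acp5 had −0.88 (SE 0.34), Mmp9 −0.78 (SE 0.35), Ctsk −0.77 (SE 0.31), Itgb3 −0.68 (SE 0.35), Oscar −0.56 (SE 0.39), Nfatc1 −0.53 (SE 0.28) and Ocstamp −0.47 (SE 0.35). The median was −0.72, beside 0.07 over 23653 genes, none of which edgeR called (2859 at an unadjusted p under 0.05, and 47 higher and 4 lower by DESeq2). This difference contains the comparison that picked Slc9b2 and Ctsk, so it is given with no test. With receptor-gene reads as a covariate the values of Nfatc1 and Itgb3 were −0.15 each, that of Calcr −0.18 and that of Dcstamp −0.89, while Ocstamp went further from 0, to −0.85. In that fit Mmp9 stood at −0.48, Ctsk at −0.55, Slc9b2 at −0.76, Oscar at −0.54 and Acp5 at −0.92. Single libraries moved Acp5 to −0.57 (without Vehicle_Load replicate 5), Ocstamp to −0.28 (without the same library), Oscar to −0.33 (without DEX_Ctrl replicate 5) and Calcr to between −0.64 and −0.21 (without Vehicle_Ctrl replicates 5 and 2).

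The 10 genes did not vary as a block from tibia to tibia. Over all 20 tibiae the median r of their 45 pairs was 0.39 (log2 CPM, 39 pairs positive), and of deviations from the group means 0.32 (35 positive). Ctsk and Acp5 had the highest value (0.80), and Ctsk and Slc9b2 had 0.76. Nfatc1 and Itgb3 had 0.77, Itgb3 and Dcstamp also 0.77, and Slc9b2 and Mmp9 0.73. Ocstamp, at 26 to 68 counts a library, had a negative r with Nfatc1 (−0.36). These are descriptions over libraries that share treatment, depth and background reads.

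**Figure D4:**
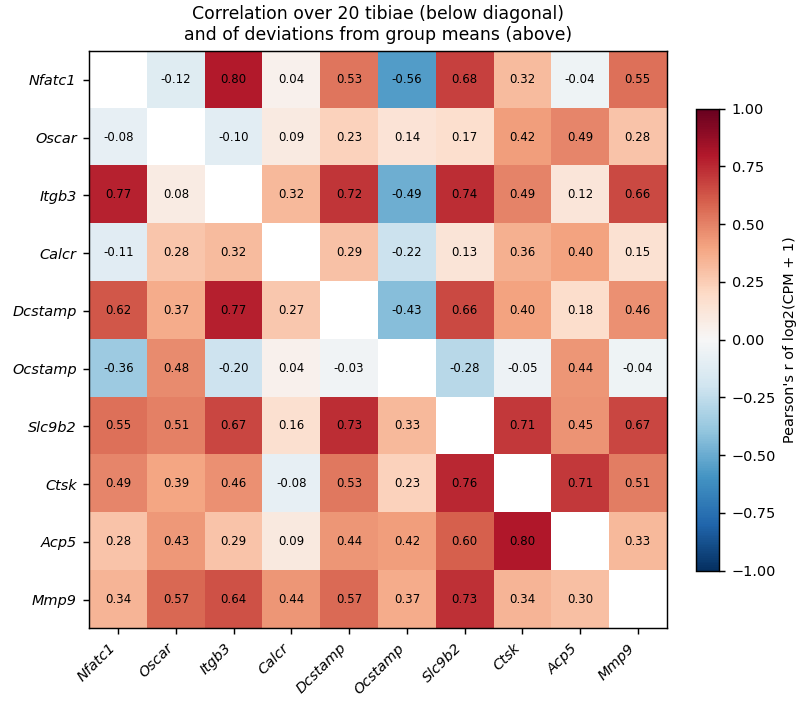
Pearson's r of log2(CPM + 1) between the 10 genes over 20 tibiae (below the diagonal) and of deviations from the group means (above it), colour from −1 to 1. Ctsk with Acp5 has the highest value below the diagonal (0.80) and Nfatc1 with Itgb3 the highest above it (0.80).

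The genes most like Ctsk, Mmp9 and Itgb3 differed. Of 21067 genes searched, those closest to Ctsk over the 20 tibiae were Slc37a2 (r = 0.90), a sugar-phosphate transporter of osteoclast lysosomes, Atp6v0d2 (0.89), a subunit of the osteoclast proton pump, and Ckb (0.86), the brain-type creatine kinase. Those closest to Mmp9 were Pstpip1 (0.98), a cytoskeletal adaptor of blood cells, Slfn2 (0.94) and Itgb2 (0.94), the integrin β2 chain of leukocytes. Those closest to Itgb3 were Itga2b (0.98), the platelet integrin chain that pairs with β3, P2rx1 (0.96), an ATP-gated channel of platelets, and Tubb1 (0.95), the tubulin of platelets. For deviations from the group means these 9 values were 0.75 to 0.98. On that scale Slc37a2 stood lowest, at rank 105 of all genes searched for Ctsk, and the other 8 ranked between 1 and 11 for their member.

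**Figure D5:**
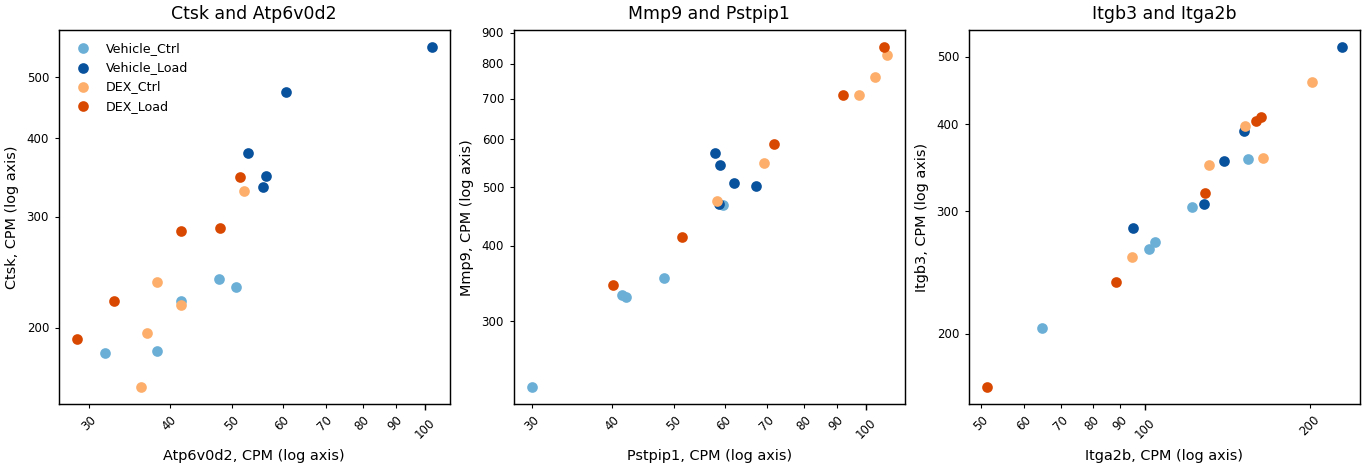
CPM of Ctsk, Mmp9 and Itgb3 (y axes, log scale) against a gene among the 3 most like each (x axes, log scale: Atp6v0d2, Pstpip1 and Itga2b), 1 point a tibia, coloured by group. Itgb3 follows Itga2b with an r of 0.98 and Mmp9 follows Pstpip1 with 0.98, and Ctsk follows Atp6v0d2 with 0.89.

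The genes closest to Ctsk had an r of 0.04 to 0.41 with Mmp9 and 0.37 to 0.48 with Itgb3. Those closest to Mmp9 had 0.14 to 0.23 with Ctsk and 0.61 to 0.71 with Itgb3, and those closest to Itgb3 had 0.37 to 0.40 with Ctsk and 0.62 to 0.66 with Mmp9. The summed megakaryocyte and platelet markers, of which Itga2b is 1 of 9, stood at 348 to 628 CPM in Vehicle_Ctrl, 417 to 705 in Vehicle_Load, 467 to 677 in DEX_Ctrl and 338 to 543 in DEX_Load, and their r with Itgb3 was 0.65. The macrophage and monocyte sum had an r of 0.79 with Itgb3. None of the 9 megakaryocyte and platelet markers was called in the tested comparisons by edgeR, and the part of either cell type in the Itgb3 levels was not tested. To the mean of the 10 members the closest genes were Arsb (r = 0.92), a lysosomal sulfatase, Atp6v1a (0.87) and Atp6v1b2 (0.85), subunits of the proton pump, Plekhm1 (0.86), a lysosome-trafficking protein, and Tbc1d2b (0.86).

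Around the members, 47 further genes of the osteoclast program were grouped by role. Loading under dexamethasone called 0 of the 47 (0 at an unadjusted p under 0.05 and 0 by DESeq2), with a median log2FC of −0.19 beside 0.02 over all genes. Dexamethasone in unloaded tibiae called 1 higher and 1 lower (14 at an unadjusted p under 0.05), where 2.86% of all genes were higher, 3.99% lower and 24.6% under that p. In loaded tibiae it called 0 higher and 8 lower (18 at an unadjusted p under 0.05), where 12.9% of all genes were higher, 8.35% lower and 37.2% under that p. Those counts were 4 higher and 1 lower in unloaded tibiae without DEX_Ctrl replicate 1, and 1 higher and 4 lower in loaded tibiae without DEX_Load replicates 1 and 4. With receptor-gene reads as a covariate 0 of the 8 genes lower in loaded tibiae passed (edgeR), while over all genes the calls went from 2554 higher and 1652 lower to 4 and 24. These reads did not overlap between Vehicle_Load (232 to 913 CPM) and DEX_Load (1092 to 8885 CPM), so that fit cannot tell them apart from dexamethasone. In unloaded tibiae the covariate went the other way, with 16 of the 47 called (edgeR). Calls over all genes there went from 564 higher and 787 lower to 1524 and 1068. Src, Relb and Atp6v0d2 missed the threshold without DEX_Load replicates 1 and 4, at an adjusted p of 0.105, 0.0727 and 0.189 (edgeR), as did Ckb.

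Among receptors and proximal signalling (12 genes), 2 fell in loaded tibiae under dexamethasone: Itgav, the αv partner of integrin β3 in osteoclasts (log2FC −0.74, SE 0.16, adjusted p = 0.00990, edgeR), and Src, the kinase that organises the osteoclast cytoskeleton (log2FC −0.69, SE 0.22, adjusted p = 0.0419, edgeR). Among positive transcription factors (10 genes), 2 of the alternative NF-κB arm fell there, Nfkb2 (log2FC −0.71, SE 0.17) and Relb (log2FC −0.47, SE 0.13). In unloaded tibiae Spi1, encoding the myeloid factor PU.1, rose from 49.0 ± 9.39 CPM (SD, n = 5) to 90.3 ± 22.2 (SD, n = 4; log2FC 0.91, SE 0.19, adjusted p = 0.0210, edgeR). Neutrophils also express Spi1, and the rise of their markers is given above.

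Of the resorption machinery (11 genes), 3 fell in loaded tibiae under dexamethasone. Mmp14, a membrane metalloproteinase that osteoblast-lineage cells also make, had a log2FC of −1.86 (SE 0.27, adjusted p = 0.00163, edgeR), and Atp6v0d2 went from 65.7 ± 20.7 to 40.5 ± 9.72 CPM (SD, n = 5 each; log2FC −0.66, SE 0.21, adjusted p = 0.0446, edgeR). The other was Ckb, whose groups overlapped. Of 4 ligands and decoys, Tnfrsf11b, encoding osteoprotegerin, the decoy receptor for RANKL, fell in both: log2FC −0.99 (SE 0.22) in unloaded and −0.76 (SE 0.21) in loaded tibiae, each with an adjusted p of 0.024 (edgeR). Osteoblast markers fell in the same comparisons (5 of 8 called in unloaded and 7 of 8 in loaded tibiae, summed level 41157 to 144646 CPM in Vehicle_Ctrl and 6175 to 35211 CPM in DEX_Ctrl). Their part in the Mmp14 and Tnfrsf11b values was not tested. None of the 4 negative transcription factors or of the 6 fusion and adhesion genes was called in a tested comparison by edgeR (2 of the 6 had an unadjusted p under 0.05 in each dexamethasone comparison). DESeq2 called 2 lower of the 6 in loaded tibiae, and 1 higher and 1 lower in unloaded ones, on its shares over all genes given above.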

How the data were processed

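RNA was extracted from frozen, pulverized tibial bone, and libraries were made with a stranded total RNA kit (SMARTer Pico v2). The authors deposited expected counts per gene, not scaled for library size. The submitters' processing notes name STAR 2.7.10a, RSEM 1.2.28 and GRCm38, and the annotation release and strand setting are not given in the sources used here. In a library 10.6% to 14.0% of values were not whole numbers, and all were rounded.

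The 10 members and the gene lists were chosen with earlier results of these data known. Differences were tested with edgeR 4.0.16 in R 4.3.3 (quasi-likelihood F test after filterByExpr and TMM, Benjamini-Hochberg adjustment over all genes tested, threshold 0.05), and with DESeq2 1.42.0 as an alternative. The scripts were tested on simulated data. Levels are CPM after TMM over the 22659 genes kept in all 20 libraries, and 1 CPM was added before log2 for correlations. Exon lengths and positions are from GENCODE M21. Replicates of a group differed by 8.82 to 113 times counting error (chi-square per degree of freedom), so no library was counted as a repeat of another. Depth limits the low genes most.

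The text names all members, up to 4 called genes with no overlap between groups per related list and comparison, the 5 genes most like the mean of the members and the 3 most like Ctsk, Mmp9 and Itgb3 each. Ckb is named as the remaining gene of its count. Nothing says that a replicate number marks a mouse, so numbers served only as a block alternative. Whether the tibiae of a group differ by mouse or by handling is not separable, so p-values measure the spread between these libraries. The paper gives other loading sessions than the labels, whose days are used. Alternatives were the DESeq2 test and size factors, other filters, the DEX libraries left out, a shared model, receptor-gene reads as a covariate, the block and each library left out.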

Additional observations from a re-analysis of the deposited data

Results flagged for a closer look

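Of 40 sets of 5 values (10 genes in 4 groups), 3 held a tibia that stood apart from the remaining 4 by Dixon's ratio, where chance gives about 1 in 20. All 3 were high values in Vehicle_Load. Acp5 was at 578.7 CPM in replicate 5 against 237.7 to 297.1 CPM, Oscar at 6.337 CPM in the same replicate against 3.321 to 4.102 CPM, and Dcstamp at 6.655 CPM in replicate 1 against 3.233 to 4.005 CPM.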

How the results depend on the processing

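Loading under vehicle kept a positive median log2FC over the members (0.45 to 0.68 over the alternatives, 0.60 in the report), and the median difference between the loading effects stayed negative (−0.83 to −0.54). Loading under DEX called 0 members in each alternative, but its median of −0.18 became 0.060 with receptor-gene reads as a covariate and −0.035 with the replicate block. With single libraries left out it ran from −0.24 to −0.029, the last without DEX_Load replicate 4. It was −0.013 with that library out in place of DEX_Ctrl replicate 4, and −0.0020 without the 3 DEX libraries richest in receptor-gene reads. The cause of these changes was not tested, here and in what follows.

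In loaded tibiae the median DEX effect of −0.23 became 0.16 with the covariate, 0.048 without the 2 loaded ones of those libraries, and −0.38 to −0.079 with single libraries left out, the last without DEX_Load replicate 4. In place of 0 the fit called 2 members with all 4 groups in the same model, and 0 to 1 with single libraries left out. In unloaded tibiae the count of members called (1) became 2 with the covariate, 0 with the replicate block (Mmp9 at an adjusted p of 0.0865, edgeR), 0 on the libraries of the block without it, and 0 to 1 with single libraries left out. Of 8 pairs with the same label number, 4 had deviations correlated above 0.1 (range −0.25 to 0.40), 3 of 4 under DEX and 1 of 4 under vehicle. The loaded tibia correlated best with its own number in 3 of 4 DEX pairs and 0 of 4 vehicle pairs, and since not every pair passed 0.1, numbers were not taken to pair tibiae.

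Some log2FC changed sign, none of them called. Loading under DEX gave Oscar 0.023 with at least 10 counts in every library, 0.021 with all 20 libraries, 0.065 with DEX_Load replicate 4 out in place of DEX_Ctrl replicate 4, 0.066 with the covariate, 0.062 with the block, 0.011 on its libraries without it, and −0.25 to 0.21 with single libraries left out. It gave Acp5 0.012 with the other replicate 4 out and 0.089 without the 3 libraries, Mmp9 0.11 with the covariate and 0.015 without the 3 libraries, Nfatc1 0.034 and Itgb3 0.066 with the covariate, and Slc9b2 −0.027 to 0.29 with single libraries left out. DEX in loaded tibiae gave Oscar −0.016 and Ocstamp −0.00891 with no filter, Mmp9 −0.0013 with the block, Itgb3 0.054 without the 2 libraries and, with the covariate, Nfatc1 0.24, Oscar −0.0041, Itgb3 0.69, Dcstamp 0.074 and Ocstamp −0.62. Slc9b2, not tested there, went from −0.23 to 0.42 with the covariate and 0.043 without the 2 libraries. DEX in unloaded tibiae gave Nfatc1 −0.019 to 0.18 with single libraries left out, and Ctsk, not tested there, went from 0.12 to −0.16 without DEX_Ctrl replicate 5. Leaving out those 3 libraries, and the block libraries without the block, were chosen after seeing the data.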
